A study of Homo sapiens with 12 samples.

Results

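The 6 genes described here, MSH3, MSH6, MLH3, PMS1, PMS2 and EXO1, act in post-replicative mismatch repair of DNA. They were taken by symbol from the 44659 genes of the count table, where each has 1 entry, and all 6 passed the filter on low counts that left 15916 genes for testing. RNA was sequenced from A375, a human melanoma cell line, in 12 libraries, 3 in each of 4 groups. Control cells (CC) had DMSO, the drugs' solvent, for 72 h. Treated cells (TC) were given the BRAF inhibitor vemurafenib at 500 nM with the MEK inhibitor cobimetinib at 500 nM (together, MAPKi) for 72 h and, like CC, were harvested at day 0. Persister cells (PC) and recovered cells (RC) had the same 72 h of MAPKi and were then kept free of drug for 2 and 9 days. CC libraries came from day 0 alone, so for PC and RC the harvest day and the group cannot be told apart. All values come from 1 cell line, and the labels do not say whether the 3 replicates of a group were separate cultures, so the p-values may measure technical spread.

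Mismatch repair removes bases that DNA polymerases misinsert and the small loops left when they slip on repeats. MutS dimers recognise the lesion: with MSH6 they bind base mismatches and the smallest loops, and with MSH3 they bind larger loops. MutL dimers are then recruited: the form with PMS2 nicks the new strand in most repair, the form with MLH3 acts mainly in meiosis and on some loops, and the role of PMS1 is less well defined. EXO1 is a 5′ to 3′ exonuclease that degrades the nicked strand, after which RPA coats the gap, the clamp PCNA and its loader RFC hold polymerase delta on the template, and the ligase LIG1 seals the nick.

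Total counts were 37773389 to 55567097 per library, and the 6 genes had between 195 and 10875 counts in a library. Levels are given as CPM, the count of a gene scaled to a library of the same normalised total. In bulk RNA, fewer cells that express a gene and less RNA per cell cannot be told apart. Of the melanocyte markers, SOX10 was at 539 to 1067 CPM in every library and DCT, PMEL and MITF were also found, while MLANA, at 0.339 to 1.94 CPM, was nearly absent. Markers of other cell types were low except for KRT10 and CD68, which many cells express. The keratinocyte marker KRT1 and the endothelial marker CDH5 were at 0 in all 12 libraries, and the leukocyte gene PTPRC was at most 0.694 CPM. Other markers of these types were found: the endothelial VWF was at 3.36 to 5.21 CPM in CC, 1.73 to 2.33 in TC, 1.67 to 1.83 in PC and 3.27 to 3.52 in RC. The keratinocyte KRT14 was at most 0.0452 CPM in CC and at 1.93 to 2.64 in PC. The 4 leukocyte genes summed to 127 to 174 CPM in CC and 719 to 1065 in TC, nearly all of it CD68, with CD3E at most 0.0463 CPM, and to 633 to 774 CPM in PC and 119 to 132 in RC. The summed level of the 9 melanocyte markers nevertheless moved with treatment, from 1846 to 2025 CPM in CC to 7245 to 10451 in TC, 3670 to 5286 in PC and 1649 to 1712 in RC. DCT made up most of the sum in TC, at 337 to 444 CPM in CC and 5261 to 7866 in TC, while S100B was at 234 to 305 CPM in CC and 128 to 149 in TC, and MITF at 303 to 476 and 236 to 407. The part of these shifts in the results was not tested.

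The sequence at the starts of the 6 genes is shown as a description. In each line, 80 bases at or just before the first annotated start are printed 5′ to 3′ on the strand of the gene (RefSeq, GRCh38.p14), with capitals for matches to a word of the E2F family of cell cycle transcription factors or to CCAAT, the word read by NF-Y (ATTGG where it lies on the other strand).
MSH3 (chr5:80654509-80654588, plus strand, 143 to 64 bases before the start): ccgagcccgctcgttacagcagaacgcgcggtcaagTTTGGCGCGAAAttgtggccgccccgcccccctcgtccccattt
MSH6 (chr2:47783095-47783174, plus strand, 50 bases before to 29 after the start): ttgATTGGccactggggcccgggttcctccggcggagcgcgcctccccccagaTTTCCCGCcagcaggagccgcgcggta
MLH3 (chr14:75051458-75051537, minus strand, 70 bases before to 9 after the start): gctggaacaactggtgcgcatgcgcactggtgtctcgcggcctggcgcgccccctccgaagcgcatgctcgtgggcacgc
PMS1 (chr2:189784380-189784459, plus strand, 70 bases before to 9 after the start): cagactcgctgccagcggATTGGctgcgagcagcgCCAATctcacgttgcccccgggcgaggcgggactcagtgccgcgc
PMS2 (chr7:6009106-6009185, minus strand, 79 bases before the start to the start itself): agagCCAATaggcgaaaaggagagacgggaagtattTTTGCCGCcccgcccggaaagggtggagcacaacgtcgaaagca
EXO1 (chr1:241848154-241848233, plus strand, 50 bases before to 29 after the start): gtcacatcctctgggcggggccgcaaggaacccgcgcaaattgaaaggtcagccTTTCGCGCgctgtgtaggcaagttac

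Over the full window, from 250 bases before to 50 after the first start, an E2F word (TTTCCCGC, TTTCGCGC, TTTGCCGC or TTTGGCGC, on either strand) was found in MSH3, MSH6, PMS2 and EXO1 and not in MLH3 or PMS1. Such a word is held by 3.33% of the 27305 promoters of the same length in the table. In EXO1 it begins 4 bases after the start and in MSH6 3 bases after it. In MSH3 there are 2 matches that overlap, between 107 and 96 bases before the start, and in PMS2 the match begins 43 bases before the start. MSH6 has 4 annotated starts, and PMS2 and EXO1 have 2 each. At the starts after the first, an E2F word was found in PMS2 and not in MSH6 or EXO1. CCAAT was found once in MSH6, 2 times in PMS1 and 3 times in PMS2, and in 35.7% of all promoters. The CHR words TTTGAA and TTCGAA, found in 16.62% of promoters, were in none of the 6 windows. A word is a match of letters and was not shown to be bound here. Any link between these words and the changes of the mRNAs was not tested.

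Under MAPKi all 6 mRNAs fell, by very different amounts. EXO1 was at 37.2, 45.5 and 43.5 CPM in the CC libraries and at 5.78, 4.98 and 4.31 CPM in TC, which is 11.9% of the CC mean. MSH6 was at 139.5, 150.2 and 146 CPM in CC and at 73.4, 73.3 and 76.7 CPM in TC, 51.2% of the CC mean. The exonuclease thus lost most of its mRNA, and the MutS subunit for base mismatches kept about as much as it lost. The 3 MutL genes fell less. MLH3 was at 43.5, 42.2 and 40.4 CPM in CC and at 25.3, 26.4 and 26.8 CPM in TC. PMS1 was at 16.7, 19.0 and 17.8 CPM in CC and at 11.6, 12.01 and 10.6 CPM in TC. PMS2 was at 40.7, 33.6 and 34.2 CPM in CC and at 29.0, 26.2 and 28.2 CPM in TC. Their TC means were 62.3%, 63.9% and 76.8% of the CC means, so that by its counts PMS2 kept more than the other 2 MutL genes. Reads of PMS2 may be misplaced to or from its near-identical copies, described below, and the part of this in the difference was not tested. MSH3, the MutS subunit for larger loops, was at 49.0, 47.6 and 47.9 CPM in CC and at 40.1, 37.3 and 36.0 CPM in TC, and kept 78.4% of its CC mean.

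**Figure D1:**
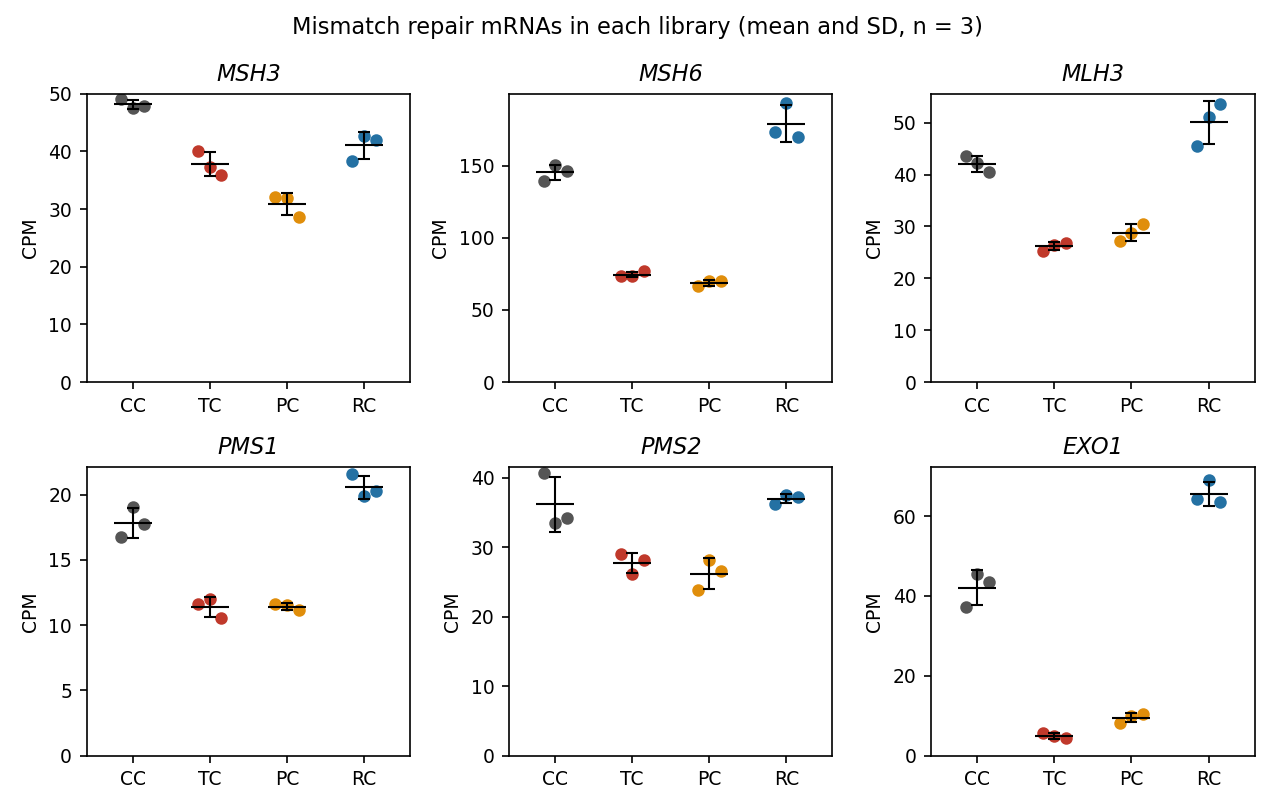
CPM (vertical axes, from 0) of the 6 mismatch repair mRNAs in each of the 12 libraries, by group (CC grey, TC red, PC orange, RC blue). Points are libraries, and bars give the mean ± SD of 3. All TC and PC points lie below all CC points in every panel, while RC lies above CC for MSH6, MLH3, PMS1 and EXO1, overlaps it for PMS2 and lies below it for MSH3.

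No TC library reached the lowest CC library for any of the 6 genes, a separation that 34.7% of all tested genes also showed. The test (edgeR quasi-likelihood, adjusted over all tested genes) called all 6 lower in TC, against 34.7% of all tested genes. The log2 fold changes were -3.07 for EXO1 (SE 0.13, adjusted p = 1.3e-09), -0.96 for MSH6 (SE 0.06, adjusted p = 4.8e-08), -0.68 for MLH3 (SE 0.07, adjusted p = 4.7e-06), -0.65 for PMS1 (SE 0.08, adjusted p = 2.0e-05), -0.38 for PMS2 (SE 0.09, adjusted p = 0.0023) and -0.35 for MSH3 (SE 0.07, adjusted p = 0.00072). Their median was -0.67, beside -0.02 over all tested genes. A test against a change of 1.5-fold (glmTreat) called 2 of the 6 lower, EXO1 (8.40-fold) and MSH6 (1.95-fold), against 19.3% of all tested genes. The MLH3 change of 1.61-fold did not pass it (adjusted p = 0.086).

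At 2 days after the drugs were removed the 6 mRNAs were still low, but 2 of them had moved on, in opposite directions. EXO1 was at 8.21, 10.0 and 10.4 CPM in the PC libraries, all above the TC libraries. MSH3 was at 32.0, 32.0 and 28.6 CPM in PC, all below the TC libraries. EXO1 had therefore begun to come back while MSH3 was lower than during treatment. MSH6 was at 66.4, 69.9 and 70.0 CPM, also below each TC library, and MLH3 was at 27.3, 28.7 and 30.5 CPM, above each TC library, but neither was called different from TC. The share of all tested genes whose PC and TC libraries do not overlap was not counted, so these separations carry no weight by themselves. PMS1 was at 11.6, 11.5 and 11.1 CPM and PMS2 at 23.8, 28.2 and 26.6 CPM, and both overlapped TC. As shares of the CC mean, EXO1 was at 22.7%, MSH6 at 47.3%, PMS1 at 64.0%, MSH3 at 64.1%, MLH3 at 68.6% and PMS2 at 72.5%.

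All 6 genes were called lower in PC than in CC, against 35.9% of all tested genes, and none of them overlapped CC, which 36.1% of tested genes showed in that direction. The log2 fold changes ran from -2.14 for EXO1 (SE 0.12, adjusted p = 1.6e-08) and -1.08 for MSH6 (SE 0.06, adjusted p = 1.8e-08) to -0.46 for PMS2 (SE 0.09, adjusted p = 0.00053), with a median of -0.64 beside -0.04 over all tested genes. MSH3 (-0.64, SE 0.07, adjusted p = 4.8e-06) was level with PMS1 (-0.64, SE 0.08, adjusted p = 1.9e-05) and MLH3 was at -0.54 (SE 0.07, adjusted p = 3.1e-05). Beyond 1.5-fold, EXO1 and MSH6 were again the 2 called, against 19.9% of all tested genes.

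Compared directly, PC differed from TC in 2 of the 6 genes. EXO1 was higher in PC (log2 fold change 0.93, SE 0.13, adjusted p = 0.00025), a direction called for 12.2% of all tested genes. MSH3 was lower (-0.29, SE 0.07, adjusted p = 0.010), a direction called for 12.5%. The call of MSH3 was lost without TC replicate 1 (-0.24, adjusted p = 0.053) or without PC replicate 3 (-0.24, adjusted p = 0.052). For MSH6 (-0.11, 95% confidence interval -0.25 to 0.02, adjusted p = 0.21), MLH3 (0.14, -0.02 to 0.30, adjusted p = 0.20), PMS2 (-0.08, -0.28 to 0.11, adjusted p = 0.54) and PMS1 (0.0037, -0.18 to 0.18, adjusted p = 0.98) no difference was called. Beyond 1.5-fold (glmTreat in edgeR), 0 of the 6 were called between TC and PC, against 3.48% of all tested genes in either direction. EXO1 was closest (adjusted p = 0.053), the 1 gene at an unadjusted p under 0.05, and DESeq2 also called 0.

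After 9 days without drug the genes no longer shared a direction. EXO1 was at 64.4, 69.0 and 63.4 CPM in the RC libraries, 156% of the CC mean and above every CC library. MSH6 was at 174, 194 and 170.0 CPM and MLH3 at 45.5, 51.1 and 53.5 CPM, and these too lay above every CC library. MSH3 was at 38.4, 42.7 and 42.1 CPM, 85.3% of the CC mean and below every CC library. The MutS subunit for mismatches thus passed its control level and the one for larger loops did not return to it. PMS1 was at 21.6, 19.9 and 20.3 CPM, without overlap with CC. PMS2 was at 36.2, 37.6 and 37.2 CPM, inside the range of CC.

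In RC 3 of the 6 genes were called higher than in CC, against 18.2% of all tested genes, and 1 was called lower, against 19.1%. Those higher were EXO1 (log2 fold change 0.64, SE 0.11, adjusted p = 0.0011), MSH6 (0.30, SE 0.06, adjusted p = 0.0026) and MLH3 (0.25, SE 0.07, adjusted p = 0.018). MSH3 was lower (-0.23, SE 0.07, adjusted p = 0.022). PMS1 (0.20, 95% confidence interval 0.03 to 0.38, adjusted p = 0.068) and PMS2 (0.03, -0.16 to 0.23, adjusted p = 0.80) were not called. Without overlap with CC, 4 genes were higher, as were 23.7% of tested genes, and 1 was lower, as were 23.5%. The small changes depended on single libraries. MSH3 was no longer called without CC replicate 1 (-0.22, adjusted p = 0.059) or RC replicate 1 (-0.18, adjusted p = 0.099), and MLH3 was not called without RC replicate 2 (0.24, adjusted p = 0.059) or RC replicate 3 (0.21, adjusted p = 0.076). PMS1 was called under 3 of 18 alternatives, among them DESeq2 and the fit without CC replicate 2 (0.25, adjusted p = 0.035). Fitted on CC and RC alone, only EXO1 and MSH6 of the 6 were called. Beyond 1.5-fold, 0 of the 6 were called by glmTreat or by DESeq2, and 0 had an unadjusted p under 0.05, against 3.87% of all tested genes called in either direction.

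**Figure D2:**
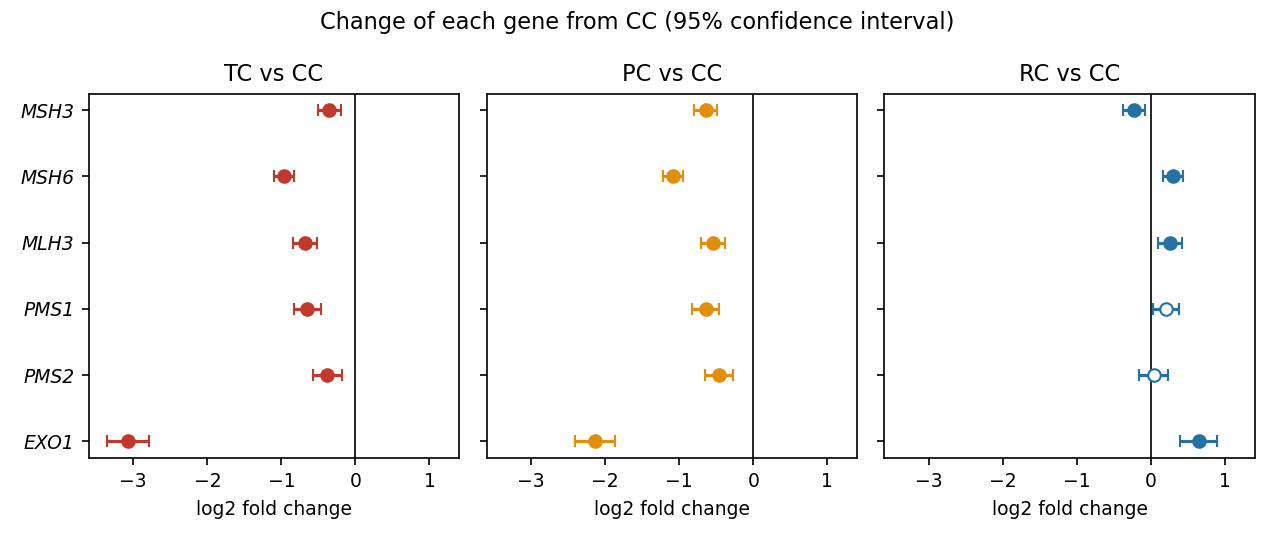
Log2 fold change (horizontal axes) of each gene in TC, PC and RC against CC, from the edgeR fit, with 95% confidence intervals. Filled points have an adjusted p under 0.05. All 6 are below 0 in TC and PC, with EXO1 farthest, at -3.07 and -2.14, and in RC the 6 lie between -0.23 (MSH3) and 0.64 (EXO1).

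Between PC and RC every one of the 6 rose, against 35.7% of all tested genes. EXO1 rose 6.87-fold (log2 2.78, SE 0.12, adjusted p = 2.0e-09), MSH6 2.60-fold (1.38, SE 0.06, adjusted p = 2.4e-09), PMS1 1.80-fold (0.85, SE 0.08, adjusted p = 1.6e-06), MLH3 1.74-fold (0.80, SE 0.07, adjusted p = 1.0e-06), PMS2 1.41-fold (0.50, SE 0.09, adjusted p = 0.00030) and MSH3 1.33-fold (0.41, SE 0.07, adjusted p = 0.00020). The first 4 of these passed the test beyond 1.5-fold, against 20.2% of all tested genes. EXO1 and MSH6 were thus the 2 members that moved most in each direction, and MSH3 and PMS2 had the smallest rise. The comparisons share libraries, so a gene that is low in PC enters both the fall and the rise.

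MSH6 and MSH3 take the same place in alternative MutS dimers, and the ratio of their counts within a library does not depend on normalisation. It was 2.85, 3.16 and 3.06 in the CC libraries and 1.83, 1.97 and 2.13 in the TC libraries. The PC libraries had ratios of 2.07, 2.19 and 2.44, and the RC libraries of 4.52, 4.53 and 4.04. The ratio was lower than in every CC library throughout TC and PC and higher in all of RC. On the log2 scale the means differed from CC by -0.61 in TC, -0.44 in PC and 0.53 in RC, with SDs within groups of 0.08 to 0.12 (exact permutation test, two-sided, p = 0.10 in each, the smallest that 3 against 3 libraries allow).

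For the MutL subunits PMS2 and MLH3 the ratio of counts was 0.935, 0.796 and 0.847 in the CC libraries and 1.15, 0.989 and 1.05 in the TC libraries. The PC libraries had ratios of 0.872, 0.983 and 0.873, and the RC libraries of 0.796, 0.735 and 0.695. TC lay above CC without overlap, by 0.31 on the log2 scale (exact permutation test, two-sided, p = 0.10). PC overlapped CC (difference 0.08, exact p = 0.40), and RC did too, with 1 RC library just above the lowest CC library (difference -0.21, exact p = 0.20). Each of these differences was smaller than that of MSH6 and MSH3 in the same group, a contrast that was not tested. Reads misplaced between PMS2 and its near-identical copies would enter the ratio of PMS2 to MLH3.

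**Figure D3:**
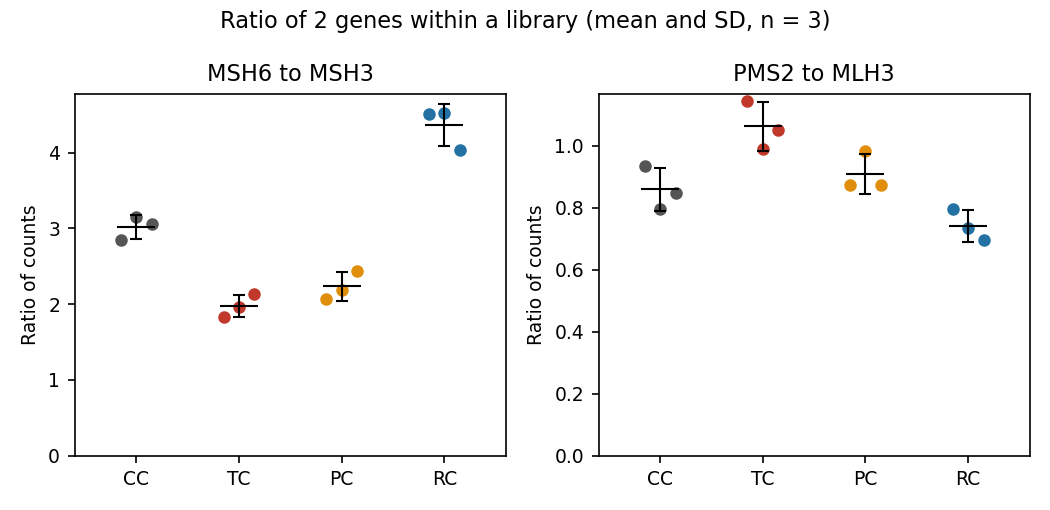
Ratio of MSH6 to MSH3 counts (left) and of PMS2 to MLH3 counts (right) in each library, by group, with the mean ± SD of 3; both vertical axes start at 0. MSH6 to MSH3 falls from 2.85 to 3.16 in CC to 1.83 to 2.13 in TC and stands at 4.04 to 4.53 in RC.

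Levels of different genes were compared per kilobase of the canonical transcript (GENCODE v44), which is 4265 bases for MSH6, 4443 for MSH3, 7820 for MLH3, 3156 for PMS1, 5093 for PMS2 and 3449 for EXO1. In CC, MSH6 had 34.1 ± 1.27 CPM per kb (SD, n = 3), EXO1 12.2 ± 1.25, MSH3 10.8 ± 0.172, PMS2 7.10 ± 0.776, PMS1 5.66 ± 0.367 and MLH3 5.38 ± 0.199. The ranges of EXO1 and MSH3 overlapped, as did those of PMS1 and MLH3. In TC, EXO1 became the lowest of the 6, with 1.46 ± 0.213 CPM per kb, and MSH3, with 8.503 ± 0.467, was second to MSH6, with 17.5 ± 0.461. In RC the order of CC had returned, with MSH6 at 42.0 ± 2.99, EXO1 at 19.0 ± 0.872 and MSH3 at 9.24 ± 0.524 CPM per kb. These levels depend on the transcript taken. Over all annotated exons MSH6 spans 17722 bases, and with such lengths it ranked 3 in CC and 2 in the other groups.

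The 6 genes lie on 5 chromosomes (GENCODE v44, GRCh38; the counts were made with an NCBI annotation of the same build). MSH3 is at chr5:80654652-80876815 (plus strand, 24 exons), the canonical transcript of MSH6 at chr2:47783145-47806953 (plus, 10 exons), PMS1 at chr2:189784085-189877629 (plus, 13 exons), EXO1 at chr1:241847967-241895148 (plus, 16 exons), PMS2 at chr7:5970925-6009130 (minus, 15 exons) and MLH3 at chr14:75013769-75051532 (minus, 13 exons). Exons on the opposite strand overlap parts of some of these transcripts, at most 12.43% of one (530 bases of MSH6, FBXO11), and since the strand setting of the counting was not stated, reads there cannot be told apart.

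PMS1 and PMS2 each start head to head with a protein-coding neighbour, less than 1000 bases away and on the other strand. The outermost annotated starts of PMS1 (chr2:189784085) and of ORMDL1, a regulator of sphingolipid synthesis, are 279 bases apart, and the genes overlap between them. The canonical transcript of PMS1, whose start was used for the promoter, begins at chr2:189784450, outside ORMDL1 (chr2:189770267-189784364). ORMDL1 was at 33.2, 34.8 and 37.7 CPM in CC and 53.5, 58.8 and 58.7 CPM in TC. It was at 71.2, 74.5 and 75.8 CPM in PC and at 31.2, 29.8 and 31.2 CPM in RC. It rose in TC (log2 fold change 0.69, SE 0.06, adjusted p = 1.2e-06) and PC (1.07, SE 0.06, adjusted p = 2.7e-08), where PMS1 fell. Its lower level in RC (-0.20, adjusted p = 0.031) was not called without CC replicate 3 (-0.14), PC replicate 2 or any 1 of the RC replicates, with a summed count of 2 as the filter, or when only CC and RC were fitted. PMS2 starts 125 bases from AIMP2, a scaffold protein of the aminoacyl-tRNA synthetase complex. AIMP2 was at 18.1 to 20.1 CPM in CC and 19.4 to 20.2 in TC (0.06, adjusted p = 0.52), where PMS2 fell, and at 15.7 to 16.1 CPM in PC (-0.25, adjusted p = 0.015, and -0.20, not called, without CC replicate 1; also not called when only CC and PC were fitted). EXO1 has only a lncRNA without a symbol on that side, and MLH3 has no such neighbour. For MSH6 the search began at the start of the whole gene, chr2:47695530, and found none. The start of its canonical transcript, chr2:47783145, was not searched.

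**Figure D4:**
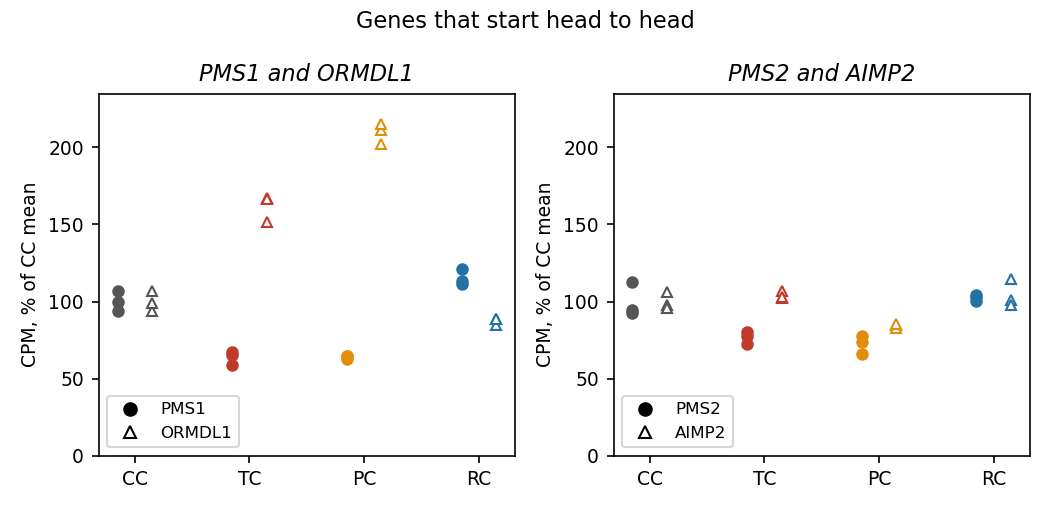
CPM of PMS1 and PMS2 (filled circles) and of the genes that start head to head with them (open triangles) in each library, as a percentage of the gene's own CC mean, by group. ORMDL1 stands at 209% of its CC mean in PC where PMS1 stands at 64.0%.

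The later steps of mismatch repair share their proteins with DNA replication. Of 14 such genes, all tested, 13 were called lower in TC, against 34.7% of all tested genes, and 1 was called higher, against 33.2%. The median log2 fold change was -1.16. RFC3, a subunit of the clamp loader, fell from 85.6, 106 and 115 CPM in CC to 14.2, 15.8 and 14.9 in TC (log2 fold change -2.77, SE 0.10, adjusted p = 5.2e-10). LIG1 fell from 43.4, 50.1 and 49.0 CPM to 10.6, 9.07 and 9.72 (-2.28, SE 0.08, adjusted p = 3.5e-10). The clamp PCNA fell from 48.9, 75.2 and 62.4 CPM to 23.5, 24.0 and 24.8 (-1.37, SE 0.12, adjusted p = 6.2e-07). The largest subunit of RPA, RPA1, fell less (-0.65, SE 0.09, adjusted p = 3.0e-05), and RPA2 least of the 13 (-0.45, SE 0.07, adjusted p = 7.1e-05). The exception was POLD4, the smallest subunit of polymerase delta, which rose from 59.0, 74.2 and 43.0 CPM in CC to 97.4, 106 and 110 in TC (0.83, SE 0.15, adjusted p = 0.00027), while its catalytic subunit POLD1 fell (-1.50, SE 0.09, adjusted p = 2.6e-08).

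In PC 12 of the 14 were lower than in CC, against 35.9% of all tested genes, and POLD4 was higher (0.64, SE 0.15, adjusted p = 0.0018), against 33.2%. RFC5, another subunit of the clamp loader, was at 40.05, 42.4 and 45.0 CPM in PC beside 39.5, 53.4 and 44.01 in CC (-0.10, SE 0.09, adjusted p = 0.35, and -0.20 to 0.03 over the alternatives). Over TC, 6 of the 14 had risen in PC, against 12.2% of all tested genes, and 0 had fallen, against 12.5% (edgeR, with 1 lower at an unadjusted p under 0.05 and 0 by DESeq2). With single libraries left out, 4 to 8 of the 14 were called: RFC2 (0.33, adjusted p = 0.014) was lost without PC replicate 3, and POLD3 (0.42, adjusted p = 0.015) without PC replicate 3 or TC replicate 1. RFC3 rose by 0.88 (SE 0.10, adjusted p = 7.0e-05), close to the 0.93 of EXO1. In RC 11 of the 14 were higher than in CC, against 18.2% of all tested genes, and 0 were lower, against 19.1% (edgeR, with 0 lower also at an unadjusted p under 0.05 and by DESeq2). RFC5 was the highest relative to CC, at 85.4, 89.7 and 87.5 CPM (0.94, SE 0.09, adjusted p = 3.7e-05), and RPA2 (0.11, adjusted p = 0.21), RPA3 (0.38, adjusted p = 0.079) and POLD4 (-0.16, adjusted p = 0.41) were not called. RPA3 was called without CC replicate 2 (0.68), and POLD4 was called lower without CC replicate 3 (-0.34). POLD1, the catalytic subunit of DNA polymerase delta (0.29, adjusted p = 0.022), was not called when only CC and RC were fitted or without CC replicate 1, RC replicate 1 or RC replicate 2 (0.21 to 0.39 over the alternatives), and 10 to 12 of the 14 were called when single libraries were left out. From PC to RC 13 of the 14 rose, against 35.7% of all tested genes, and POLD4 fell (-0.80, SE 0.15, adjusted p = 0.00035), a direction called for 34.2%.

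A list of 10 markers of DNA replication was set beside these results, and the state of the cell cycle itself was not measured. The summed level of these markers was 855 to 1099 CPM in CC and 213 to 239 CPM in TC, then 410 to 449 CPM in PC and 1506 to 1597 CPM in RC, and its part in the changes of the mismatch repair genes was not tested. The sum leans on a few genes: RRM2 alone rose from a mean of 22.4 CPM in TC to 125 CPM in PC. In TC 9 of the 10 were lower than in CC (median log2 fold change -2.14), against 34.7% of all tested genes. By PC, 8 were lower, against 35.9%, and 1 was higher, against 33.2%. The higher one was CCNE2, the cyclin E2 that drives entry into S phase (0.99, SE 0.16, adjusted p = 0.00014), and all 10 had risen over TC, against 12.2%. In RC all 10 were higher than in CC, against 18.2%, with a median of 0.71. The change of EXO1 was of the size of the helicase gene MCM2 and the replication factor CDC45 in TC (-2.65 and -3.29), whereas the changes of MSH3 and PMS2 were smaller than those of all these markers but CCNE2. RRM2, a subunit of ribonucleotide reductase, was back near CC in PC (-0.11, adjusted p = 0.44; called lower without CC replicate 1, -0.25), at 114, 124 and 137 CPM beside 107, 150.2 and 146 in CC, where EXO1 and MSH6 were called lower.

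**Figure D5:**
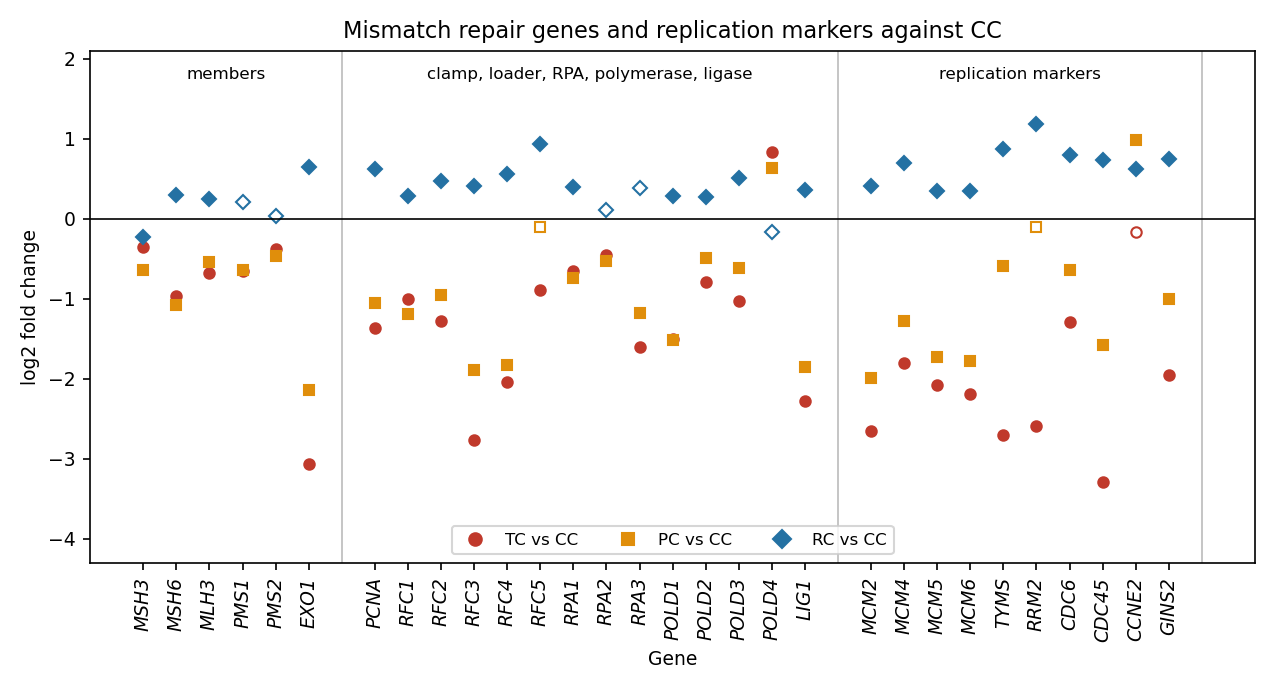
Log2 fold change (vertical axis) in TC (red circles), PC (orange squares) and RC (blue diamonds) against CC for the 6 members, the 14 other mismatch repair genes and the 10 replication markers; filled symbols have an adjusted p under 0.05. POLD4 is the one gene above 0 in TC, at 0.83, and MSH3 lies below 0 in all 3 comparisons.

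Over the 12 libraries, EXO1 followed genes of replication most closely. The 3 genes of 11907 compared whose log2 CPM correlated best with EXO1 were the helicase genes MCM8 and MCM7 and the chromatin factor ATAD2, with Pearson r of 0.998 to 0.999. For MSH6 these were NUP205, a nuclear pore protein, and the chaperones HSPD1 and HSP90AB1 (r = 0.995 to 0.996). For MSH3 they were the GTPase regulator ARHGAP42, the spectrin SPTBN1 and OGDHL (r = 0.99 each), none of them a replication gene. For PMS1 they were TIMM13, TIMM50 and PPP5C (r = 0.99 each), for MLH3 they included STK17B and ANP32E (r = 0.99 each), and for PMS2, with lower values, LINC01447, CTC1 and DENND1A (r = 0.96 each). Among the members themselves, r was between 0.87 and 0.98 for the 10 pairs without MSH3 and between 0.62 and 0.79 for the 5 pairs with it. All points of such a correlation come from the same 4 groups of 3 libraries, so r describes the likeness of the group pattern.

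The counts of the meiotic MutS genes were near or at 0. MSH4 was at most 0.511 CPM in any library, and MSH5 with its 7 numbered copies had 0 counts in all 12. By counting error alone, 0 counts at the lowest depth allow up to 0.0794 CPM. How reads that fit several such listings were counted was not stated, and that bound does not cover reads left out for this reason. The 0 of MSH5 may therefore not give its level. PMS2 has near-identical copies elsewhere in the genome, and 8 of these were counted, PMS2CL and 7 named PMS2P with a number. PMS2 held 37.2% to 49.98% of the reads of PMS2 and these copies in each library, so part of its reads may be misplaced in either direction. PMS2CL was at 7.01, 8.76 and 9.16 CPM in CC and 9.92, 9.07 and 9.51 in TC (0.19, SE 0.11, adjusted p = 0.15), whereas PMS2 fell. PMS2P1, at 17.8, 18.4 and 14.2 CPM in CC and 12.9, 12.01 and 12.1 in TC, was lower (-0.45, SE 0.10, adjusted p = 0.0015). Of the 8 copies, 4 were called lower in TC, against 34.7% of all tested genes, and 0 in PC (edgeR, with 1 lower in PC at an unadjusted p under 0.05 and 0 by DESeq2), against 35.9%. Of these 4 calls, 3 were lost under at least 1 of the 18 alternatives: PMS2P3 with a summed count of 2 as the filter or when only CC and TC were fitted, PMS2P5 with either of these or without CC replicate 1 or 2 or TC replicate 1 or 3, and PMS2P7 without CC replicate 3 or TC replicate 1 or 2. Over the alternatives the log2 fold changes were -0.49 to -0.38 for PMS2P3, -0.70 to -0.48 for PMS2P5 and -1.10 to -0.67 for PMS2P7.

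The study measured EXO1 and MSH6 by RT-qPCR, and its primers show which part of the mRNA that assay read. The sequences are given 5′ to 3′ in capitals, with exon numbers of the canonical transcripts.
EXO1 forward (exon 13, chr1:241879255-241879274): CACAGTCCCAGGAAAGTGGA
EXO1 reverse (exon 14, chr1:241881955-241881974): CGTAGCTTGGAGGTCTGGTC
MSH6 forward (exon 3, chr2:47796015-47796034): GGCAGTTTGTGATGAGCCCT
MSH6 reverse (exon 4, chr2:47798684-47798703): TCGCCTAGATCCTTGTGTCT
Each pair spans an exon junction, and all 4 matched the transcripts in full. The read counts used here cover all exons of these genes.

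The study asked whether the mRNAs that fall under MAPKi encode proteins rich in Lys, Glu, Asp and Asn, with codons that end in A or T. It did so after a shorter treatment than the 72 h used here. It also reported that proteins of DNA repair, as a class, are enriched in these residues. The coding sequences of the 6 genes (GENCODE v44) encode 1137 residues for MSH3, 1360 for MSH6, 1453 for MLH3, 932 for PMS1, 862 for PMS2 and 846 for EXO1. The 4 residues made up 29.3% of PMS1, 26.6% of EXO1, 25.8% of MLH3, 25.0% of MSH6, 24.3% of MSH3 and 23.9% of PMS2, beside a median of 21.5% over 12706 tested genes. For the 4 residues together all 6 were above that median, from percentile 67.4 (PMS2) to 92.1 (PMS1). Taken singly, EXO1 was below the median for Glu (6.27% beside 6.93%) and MSH6 for Asn (3.31% beside 3.47%). The other single shares were above their medians, though Glu in PMS2 (percentile 50.5) and Asp in MLH3 (percentile 50.3) only just. The codons AAA, GAA, GAT and AAT made up 21.0% of PMS1, 16.9% of MLH3, 16.2% of EXO1, 15.7% of MSH3, 15.1% of MSH6 and 12.8% of PMS2, beside a median of 9.13%. Of the Glu codons, GAA took between 60.3% (MLH3) and 70.3% (PMS1), beside a median of 42.1%. Any link between this composition and the changes of the mRNAs was not tested.

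MSH3 and MSH6 are relatives that differ outside their shared core. A local alignment of the translated sequences paired 832 residues, of which 31.6% were identical. Both hold the pattern of the PCNA-binding (PIP) motif near the N terminus, from residue 21 in MSH3 and from residue 4 in MSH6, and the ATP-binding pattern of MutS proteins, from residues 896 and 1134. Among the MutL proteins, PMS1 and PMS2 were 38.1% identical over 336 residues, MLH3 and PMS2 32.2% over 242, and MLH3 and PMS1 30.1% over 495.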

How the data were processed

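RNA was extracted from A375 cells (cytoplasmic fraction per the labels, total RNA per the study's methods), depleted of ribosomal RNA and sequenced in pairs of reads. The authors trimmed reads (fastp 0.20.1), aligned them to GRCh38.p13 (HISAT2 2.2.1) and counted them on exons (HTSeq 0.13.5), per the submitters' processing notes. They deposited raw read counts per gene, which were used as deposited. Strandedness and the handling of reads with several places were not given in the sources used here.

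A gene was tested if its counts, brought to equal totals, averaged at least 10 over the 12 libraries. A single quasi-likelihood fit of group means to these libraries was made with edgeR 4.0.16 (R 4.3.3, limma 3.58.1) with TMM factors. Calls used a two-sided Benjamini-Hochberg adjusted p under 0.05 over all 15916 genes, and glmTreat for changes beyond 1.5-fold. Ratios within libraries were compared by exact permutation tests. The procedure was tested on simulated data in which a small part of the genes was lowered, in TC alone. In the real data 34.7% of tested genes were called lower in TC and 33.2% higher, a setting that the simulation did not cover. Alternatives were RLE factors, library totals, DESeq2 1.42.0, a summed count of at least 2, a fit of 2 groups, a replicate block and leaving out each library. No pair of replicates agreed within sampling noise.

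The genes and lists were chosen with earlier results of these data known. Named genes are the members, the other genes of the pathway, the meiotic relatives, copies of PMS2, head-to-head neighbours within 1000 bases, replication markers, and the 3 genes with a mean count of at least 100 most correlated with each member. Protein features were computed from coding sequences of GENCODE v44 instead of a protein table. Some genes of the pathway and of these lists are not reported here.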

Additional observations from a re-analysis of the deposited data

Results flagged for a closer look

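The change from CC differed between TC and PC for 2 of the 6 genes, tested directly as PC against TC (edgeR quasi-likelihood test). EXO1 was nearer to CC in PC than in TC, with a log2 difference of 0.93 (adjusted p = 0.00025). MSH3 was farther from CC in PC than in TC, with a log2 difference of -0.29 (adjusted p = 0.010). This call of MSH3 was lost without TC replicate 1 (-0.24, adjusted p = 0.053) or without PC replicate 3 (-0.24, adjusted p = 0.052), while EXO1 stayed called without any 1 library (0.83 to 1.05).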

How the results depend on the processing

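The 30 fold changes of the members (6 genes in 5 comparisons) were each recomputed under 18 alternatives, and 24 of them kept their direction and their side of the threshold under all 18. The other 6 were small changes in RC against CC or PC against TC. In RC against CC the number of members called was 4, and 2 when only CC and RC were fitted. It was 3 to 5 when single libraries were left out, and DESeq2 called 4 higher and 1 lower. MSH3 was also not called with library totals (-0.20, adjusted p = 0.057) or a filter on a summed count of 2 (-0.22, adjusted p = 0.057), and over its alternatives the adjusted p ran from 0.0099 to 0.099. In PC against TC the number of members called was 2, and 1 to 2 when single libraries were left out, and the other pathway genes called numbered 6, with 4 to 8 when single libraries were left out and 10 (2 lower, 8 higher) when only PC and TC were fitted. Values near 0 changed sign: PMS1 in PC against TC was -0.0037 with a summed count of 2 as the filter and -0.0014 when only those groups were fitted, and ran from -0.0495 to 0.0428 when single libraries were left out, and PMS2 in RC against CC ran from -0.0173 to 0.127 when single libraries were left out. The cause was not tested.

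Libraries with the same replicate number deviated together only weakly (r -0.04 to 0.16, median 0.01, over 18 pairs). Among CC, TC and PC every same-number pair was positive (r 0.01 to 0.16), and pairs with other numbers there reached at most 0.02. Same-number pairs with RC were positive or negative (r -0.04 to 0.01). The numbers may therefore pair the CC, TC and PC samples, but the main fit did not use them. With a replicate block the members called in RC against CC numbered 4, and no call of a member changed. Of the other pathway genes 12 were called higher in RC with the block and 11 without, RPA3 being added. The low counts of MSH4 and MSH5 limit what can be said of them.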
